A study of Mus musculus with 3 samples.

Results

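The variable (V) segments of the T cell receptor alpha and beta chains were read cell by cell in leukocytes of the sciatic nerve. They were taken as all gene names of the deposited count table that begin with Trav (alpha) or Trbv (beta), which gave 93 segments, 23 Trbv and 70 Trav, of 17168 genes. Every library held CD45+ cells of sciatic nerves, taken at 15 weeks of age from mice of the genotype NOD.AIRE GW/+, in which 1 copy of Aire is altered, on the diabetes-prone NOD background. Aire acts in thymic epithelium, where tissue antigens are shown to developing T cells. Libraries 1 and 2 were read from the 3′ end of transcripts and library 3 from the 5′ end. The labels do not say whether a library is 1 animal or a pool, and a p-value here speaks only for the variation among the 3 libraries. Wild-type nerves were not analysed here, and every comparison is between cell groups of the same genotype. Groups are the authors' classes and numbered clusters: the class Cd4 (clusters 0, 5 and 6), regulatory T cells (class Treg, cluster 2), the class Cd8 (clusters 3 and 4), the class gdT/NK/NKT (clusters 8 and 9) and the class Mixed (cluster 11).

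A developing T cell builds its receptor by joining a V segment to downstream segments, with a D segment between them in the beta chain, and the joined transcript carries the V segment at its 5′ end and the constant region at its 3′ end. Most T cells keep a single productive beta chain, whereas many transcribe a pair of alpha chains. The daughters of an expanding T cell share its V segments, but unrelated cells can use the same segment too, and without the junction sequence, which was not analysed here, a shared segment does not identify a clone. Trav segments whose names contain dv can also be joined into the delta chain of gamma-delta T cells.

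The segments on which the results turn are shown by the last 60 bases of the reference V segment (GENCODE vM21, GRCm38/mm10, plus strand, 5′ to 3′). Capitals mark the stretch from the codon of the conserved cysteine to the end, where the third complementarity-determining region begins. The reference is of strain C57BL/6, and NOD alleles were not analysed here. The first set holds the beta segments that led or were co-detected in the CD8 cluster 4, with their older names from RefSeq: Trbv13-1 (V8.3, chr6:41116007-41116468), Trbv12-2 (V5.1, chr6:41118851-41119364), Trbv19 (V6, chr6:41178375-41179048) and Trbv12-1 (V5.2, chr6:41113550-41114067).
Trbv13-1: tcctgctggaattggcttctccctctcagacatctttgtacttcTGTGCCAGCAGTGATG
Trbv12-2: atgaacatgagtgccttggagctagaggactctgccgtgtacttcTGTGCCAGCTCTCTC
Trbv19: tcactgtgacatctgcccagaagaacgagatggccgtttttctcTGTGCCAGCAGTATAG
Trbv12-1: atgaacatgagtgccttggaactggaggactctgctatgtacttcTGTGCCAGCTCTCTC

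The second set holds the alpha segments of highest use in the same cluster of library 1 (Trav21-dv12) and library 3 (the other two): Trav21-dv12 (chr14:53875984-53876752), Trav3-1 (chr14:52580665-52581213) and Trav12-2 (chr14:53616315-53616914).
Trav21-dv12: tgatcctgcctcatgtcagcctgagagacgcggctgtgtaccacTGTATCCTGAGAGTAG
Trav3-1: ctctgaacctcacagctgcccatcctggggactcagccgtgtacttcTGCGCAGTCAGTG
Trav12-2: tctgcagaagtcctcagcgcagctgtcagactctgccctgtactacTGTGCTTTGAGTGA

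The third set holds the segments that led in cluster 9 of libraries 1 and 3, the part of the class gdT/NK/NKT in which Trdc, the delta constant region, was high, with the close relative read beside one of them: Trav4-4-dv10 (chr14:53683647-53684177), Trav4-3 (chr14:53598828-53599410) and Trav15-1-dv6-1 (chr14:53559632-53560247).
Trav4-4-dv10: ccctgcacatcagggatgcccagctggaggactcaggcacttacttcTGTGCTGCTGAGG
Trav4-3: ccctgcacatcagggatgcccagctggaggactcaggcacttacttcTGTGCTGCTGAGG
Trav15-1-dv6-1: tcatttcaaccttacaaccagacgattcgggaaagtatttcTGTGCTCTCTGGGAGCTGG

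How alike the segments are bears on how far a name can be read. All 93 names matched a V segment of the reference. Over the last 270 bases no Trbv segment had a relative of 95% identity or more (highest 91.1%), whereas 58 of 70 Trav segments did (median identity to the nearest relative 97.4%), and 2 Trav members were identical to another segment there. Trav names that carry d or n mark copies of a duplicated block. Trav16, Trav16n and Trav16d-dv11, for instance, were 98.1% to 98.9% identical, so counts of such copies are uncertain as to which copy was read. Trav3-1 was 97.8% identical to Trav3-4 and Trav12-2 96.7% identical to Trav12d-2, which are not among the 93. Trav21-dv12 stood apart, with 64.4% to its nearest relative, as did Trbv19 with 61.9%. Trav4-3 and Trav4-4-dv10 had 0 edits in the last 60 bases and 29 in the last 270 (89.3% identity). Each had a nearer relative outside the 93: Trav4d-3 for Trav4-3 (97.4%) and Trav4d-4 for Trav4-4-dv10 (97.0%). Trbv12-1 and Trbv12-2 had 4 edits in the last 60 and 0 in the capitals (88.5% identity over 270 bases), while Trbv12-1 and Trbv19 were only 52.6% identical.

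The 3 libraries held 6033, 2333 and 3274 cells and 22587246, 11398628 and 13791264 UMIs, with median UMIs per cell of 3011, 4156 and 3713. Libraries 1 and 2 shared 6 cell barcodes and no other pair shared any. No doublet caller was applied here, and the cells with 2 or more Trbv segments are counted below.

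V segments were read far more often in the 5′ library. In the classes Cd4, Cd8 and Treg together (3386, 1595 and 2267 cells in libraries 1, 2 and 3), at least 1 Trbv UMI was found in 13.7% of cells of library 1 (95% interval 12.6 to 14.9, exact binomial), 12.7% of library 2 (11.1 to 14.5) and 89.6% of library 3 (88.3 to 90.8). For Trav the shares were 21.4%, 16.2% and 82.3%. The 3′ libraries were close to each other and far below library 3 in both chains. When each cell was thinned to 1000 UMIs, which left out 256, 38 and 354 shallower cells, the Trbv shares were 4.97%, 3.55% and 77.6% and the Trav shares 9.75%, 5.52% and 61.2%. The constant regions, at the other end of the same transcripts, stood in the opposite order: Trac was seen in 77.6%, 87.6% and 56.3% of these cells and Trbc2 in 86.4%, 94.4% and 49.98%. Read end and library 3 cannot be told apart, since 1 library has the 5′ chemistry. Libraries 1, 2 and 3 gave 575, 265 and 17231 Trbv UMIs and 1531, 456 and 10391 Trav UMIs, and 21, 18 and 23 of the 23 Trbv members and 54, 39 and 70 of the 70 Trav members had a UMI.

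Cells that should carry no rearranged T cell receptor gave V segment UMIs as well, mostly in library 3. Trbv was found in 0.899% of B cells of library 1, in 0 of 89 in library 2 (a count of 0 allows up to 3.37%) and in 29.2% in library 3, where median UMIs were 4198 in B cells and 3134 in the alpha-beta T classes. In macrophages the shares were 0.545%, 0 of 106 cells (up to 2.83%) and 33.3%, at a median of 7437 UMIs in library 3. The B cells and macrophages of library 3 held 660 Trbv UMIs, led by Trbv13-1 (14.2% of them) and Trbv19 (12.9%). In the T cells of that library Trbv19 made 22.1% and Trbv13-1 10.3%. Counted by cells, Trbv19 was found in 38 of the 121 Trbv-positive B cells of library 3 (31.4%, 23.3 to 40.5). Among Trbv-positive cells of its alpha-beta T classes the share was 30.6%. A single V UMI in library 3 was thus also met in cells that lack the receptor. With 2 or more Trbv UMIs required, 80.3% of its T cells, 14.2% of its B cells and 25.9% of its macrophages counted as positive. Its Trbv-positive macrophages held a median of 4 Trbv UMIs and its Trbv-positive B cells 1. Cells with 2 or more Trbv segments were 2.59%, 7.39% and 44.8% of the Trbv-positive T cells of libraries 1, 2 and 3. In library 3 those cells were deeper, with a median of 4008.5 UMIs against 2953 in cells with 1 segment. All intervals cover counting error only.

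**Figure D1:**
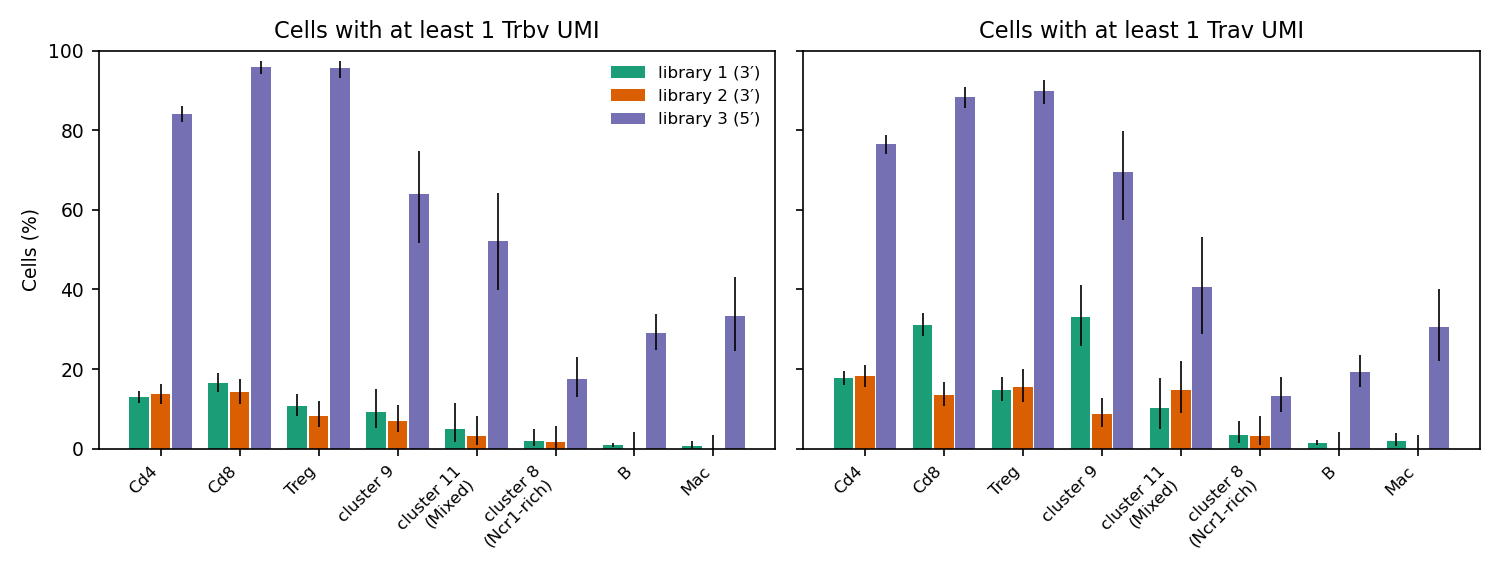
Share of cells (percent, y axis) with at least 1 Trbv or Trav UMI, by cell group (x axis) and library (colours), with exact 95% binomial intervals as error bars. Cluster 8 is marked by its Ncr1 transcripts, a natural killer cell gene. For Trbv the classes Cd4, Cd8 and Treg reach 84.2%, 96.0% and 95.7% in the 5′ library and 8.25% to 16.6% in the 3′ libraries, and B cells and macrophages of the 5′ library sit at 29.2% and 33.3%.

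From here on, use of a segment is the number of cells with at least 1 UMI of it divided by the cells with at least 1 UMI of any segment of the same chain. In the class Cd4 use was spread over many segments. Trbv12-2 had the highest mean use, at 14.3%, 27.1% and 5.54% in libraries 1, 2 and 3 (15.6 ± 10.8%, mean ± SD, n = 3), followed by Trbv19 at 7.36%, 13.1% and 24.8% (15.1 ± 8.88%). Trbv13-2 was used by 11.3%, 11.2% and 17.9% and Trbv1 by 10.4%, 8.41% and 7.77%. The SDs are wide and the order of the leading Trbv segments in Cd4 cells differs between libraries, so Trbv12-2, Trbv19 and Trbv13-2 do not differ beyond their spread. By UMIs in place of cells the 24.8% of Trbv19 in library 3 was 11.5%. By cells, it was no higher than the 31.4% in Trbv-positive B cells of that library. Part of this use in library 3 comes from cluster 5: it was 42.9% there (172 of 401 cells) and led in that cluster alone among the 3 of the class. Of the alpha segments in Cd4 cells, Trav6n-6 (6.65%, 12.6% and 8.45%) and Trav5-4 (2.85%, 13.3% and 10.6%) had the highest mean use.

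In regulatory T cells use was also spread over many segments. Trbv2 led by mean use with 18.3%, 23.1% and 8.31%, ahead of Trbv19 with 6.67%, 19.2% and 18.1%, and Trbv13-2 with 10%, 7.69% and 23.7%. In library 3 the value of Trbv13-2 depended on the counting: it was 13.5% in cells with exactly 1 Trbv segment and 10.9% of Trbv UMIs, and that of Trbv19 was 9.01% and 7.76%. Trbv16 was used by 8.33%, 7.69% and 15.4% of them. Trav5-4 was the leading alpha segment of regulatory T cells in all 3 libraries, at 13.4%, 18.4% and 11.5% (14.4 ± 3.53%), and Trav3-3 followed in the mean with 9.76%, 8.16% and 10.7%. In library 2 these values rest on 26 Trbv-positive and 49 Trav-positive cells.

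**Figure D2:**
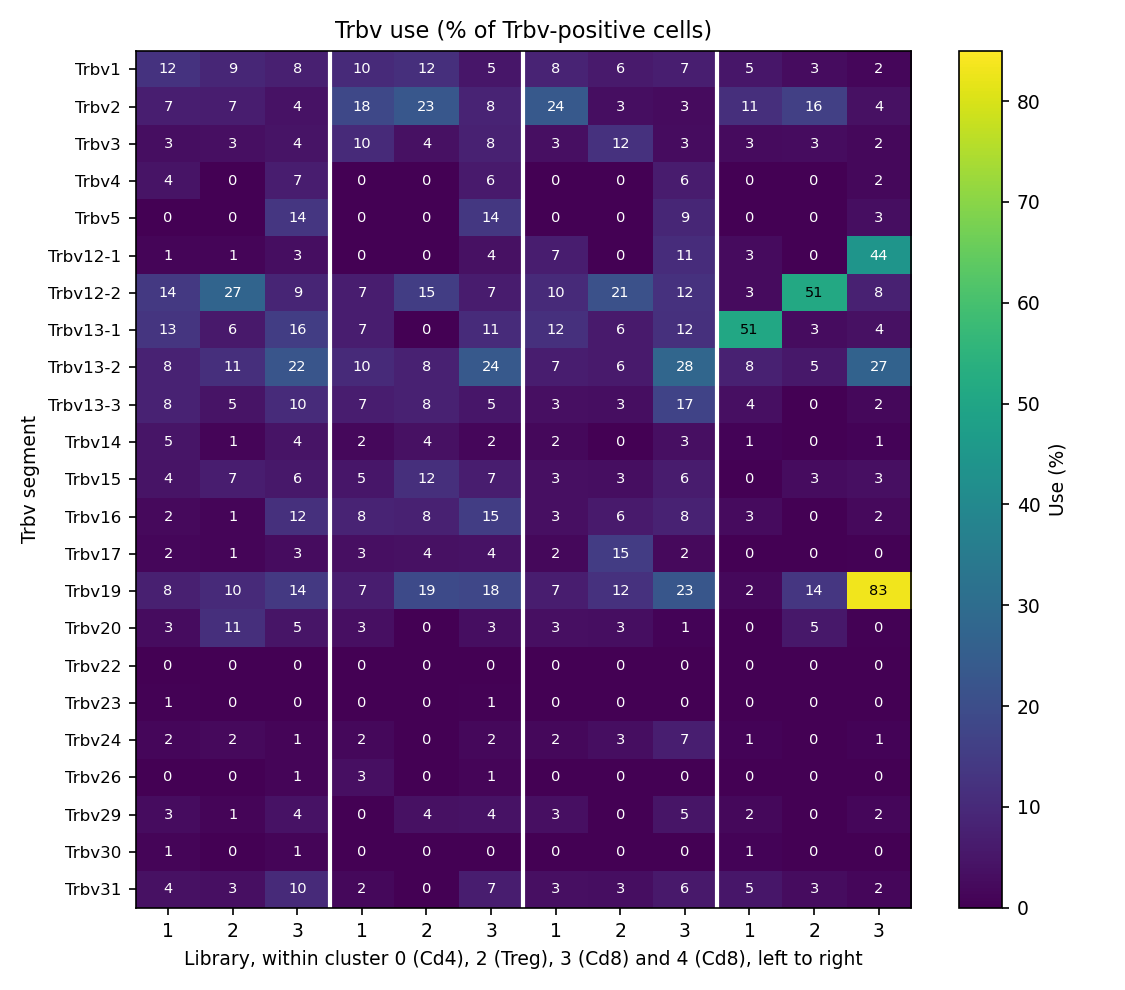
Use of each Trbv segment (rows, colour scale in percent of Trbv-positive cells) in clusters 0, 2, 3 and 4 of libraries 1, 2 and 3 (columns). Cluster 4 has its brightest field at a different segment in each library: Trbv13-1 (50.9%), Trbv12-2 (51.4%) and Trbv19 (83.1%, next to Trbv12-1 at 44.4%).

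The CD8 cells of cluster 4 were skewed, each library to its own segments. In library 1, Trbv13-1 was found in 58 of 114 Trbv-positive cells (50.9%, 95% interval 41.3 to 60.4) and Trav21-dv12 in 169 of 241 Trav-positive cells (70.1%, 63.9 to 75.8). In library 2, Trbv12-2 was found in 19 of 37 cells (51.4%, 34.4 to 68.1), next to Trbv2 (16.2%) and Trbv19 (13.5%). Trbv12-2 also led cluster 0 of that library (24 of 88 cells, 27.3%, 18.3 to 37.8), so its lead there was not particular to cluster 4. No alpha segment stood out in library 2, where Trav8d-1 led with 5 of 28 cells (17.9%). In library 3, Trbv19 was found in 217 of 261 cells (83.1%, 78.0 to 87.5), Trav3-1 in 155 of 238 (65.1%) and Trav12-2 in 119 (50%). In cells with exactly 1 segment of the chain these shares were 70.4% for Trbv19, 47.7% for Trav3-1 and 18.2% for Trav12-2, and of UMIs Trav3-1 made 28.7% and Trav12-2 19.3%.

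None of these leading segments led cluster 4 of another library. Trbv13-1 was found in 2.70% and 3.83% of the Trbv-positive cells of cluster 4 in libraries 2 and 3, and Trbv12-2 in 2.63% and 7.66% in libraries 1 and 3. Trbv19 was found in 1.75% in library 1. Trav21-dv12 was listed in 0 of 28 cells of library 2, which allows up to 10.7%, and in 1.68% of library 3. Trav12-2 was listed in 0 of 241 cells of library 1 (up to 1.24%) and 0 of 28 of library 2. In cluster 3, the other CD8 cluster, no segment reached such a share: Trbv2 led library 1 (14 of 59 cells, 23.7%), Trbv12-2 library 2 (7 of 33, 21.2%) and Trbv13-2 library 3 (97 of 344, 28.2%). The last value was 14.5% in cells with exactly 1 Trbv segment and 10.8% of UMIs.

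Most carriers of the library 1 segment lay in cluster 4, whereas those of the library 2 and 3 segments were spread. Of the 99 cells of library 1 with Trbv13-1, 58 (58.6%) were in cluster 4 and 24 in cluster 0. Of the 62 cells of library 2 with Trbv12-2, 19 (30.6%) were in cluster 4 and 24 in cluster 0. Of the 709 cells of library 3 with Trbv19, 217 (30.6%) were in cluster 4, but these held 2191 of its 3671 UMIs there (59.7%), or 10.1 UMIs per carrying cell.

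**Figure D3:**
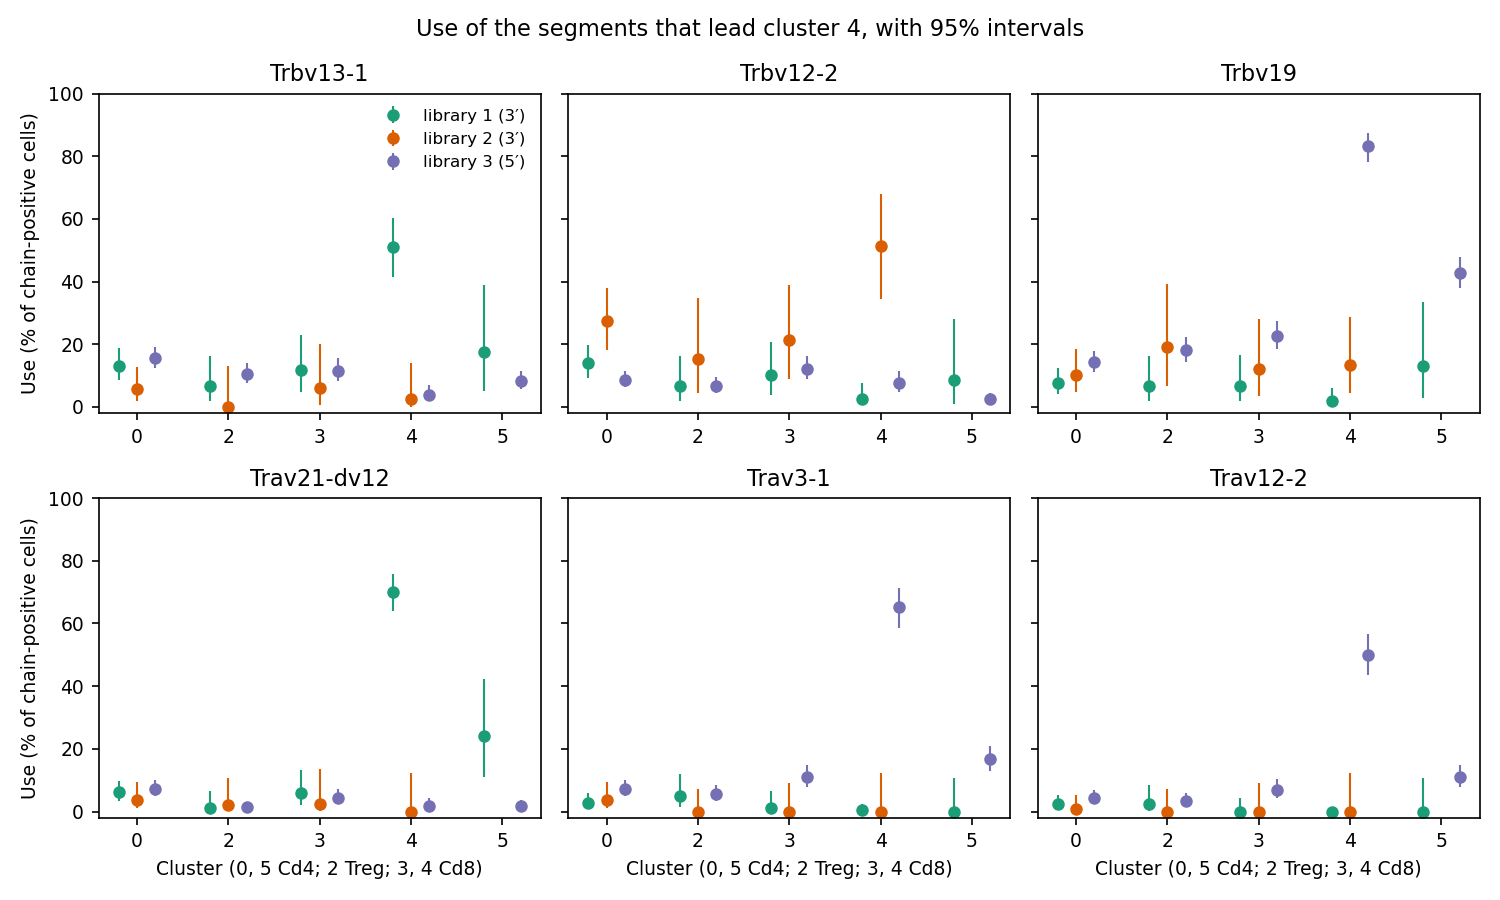
Use (percent of cells positive for the chain, y axis) of the segments that led cluster 4, by cluster (x axis) and library (colours), for groups with at least 20 chain-positive cells, with exact 95% binomial intervals. Each segment peaks in cluster 4 of a single library: Trbv13-1 and Trav21-dv12 in library 1, Trbv12-2 in library 2, and Trbv19, Trav3-1 and Trav12-2 in library 3.

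The leading alpha and beta segments of cluster 4 were often found in the same cells in libraries 1 and 3. In library 1, Trav21-dv12 was in 42 of 58 cells with Trbv13-1 (72.4%) and in 127 of 495 without (25.7%). In library 3, Trav3-1 was in 151 of 217 cells with Trbv19 (69.6%) and in 4 of 55 without (7.27%). Cells without a segment, here and in the co-detection counts below, include cells with no UMI of its chain. In cluster 4, 439 of 553 cells of library 1 and 11 of 272 of library 3 had no Trbv UMI. The 439 had a median of 3902 UMIs, against 4783 in cells with 1 Trbv segment. The part of detection in these contrasts was not tested. Whether the pair shares below exceed what the use of each segment alone would give was not tested. In library 1, 53 cells of cluster 4 held exactly 1 Trav and 1 Trbv segment, and 37 of them (69.8%, 55.7 to 81.7) held Trav21-dv12 with Trbv13-1. Of the 46 cells of the whole library with both segments, 42 (91.3%) were in cluster 4. In library 3, where most cells held more than 1 segment of a chain, the segment with the most UMIs was taken for each chain: Trav3-1 with Trbv19 made 82 of 184 cells (44.6%, 37.3 to 52.1) and Trav12-2 with Trbv19 made 37 (20.1%, 14.6 to 26.6). Of the cells of library 3 with Trav3-1 and Trbv19, 151 of 212 (71.2%) were in cluster 4 and 32 in cluster 5. In library 2, only 1 cell of cluster 4 could be paired.

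Within cluster 4 of library 3 several segments were read beside Trbv19. Trav12-2 was found in 94 of 155 cells with Trav3-1 (60.6%) and in 25 of 117 cells without it (21.4%). Trbv12-1 was found in 109 of 217 cells with Trbv19 (50.2%) and in 7 of 55 without (12.7%), and Trbv19 had more UMIs in 103 of those 109. Trbv13-2 was found in 28.6% of cells with Trbv19 and 14.5% of the others. Cells of cluster 4 with 2 or more Trbv segments had a median of 6404 UMIs against 4452 in those with 1, and the part of depth, free RNA and doublets in this co-detection was not tested. When cells with exactly 1 Trbv segment were counted, Trbv12-1 was in 2.04% of them and Trbv19 in 70.4%.

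A smaller pairing was met in cluster 3 of library 3. Trav3-3 was found there in 64 of 319 Trav-positive cells (20.1%) and in 30 of 59 cells with Trbv13-3 (50.8%), against 34 of 299 cells without (11.4%). Of the 39 cells of library 3 with Trav3-3 and Trbv13-3, 30 were in cluster 3. Their leading pair made 28 of 268 paired cells (10.4%). In clusters 0 and 2 pairs were scattered: in library 3 the most common pairs of regulatory T cells, Trav5-4 with Trbv5, Trav6n-6 with Trbv16 and Trav7d-2 with Trbv3, each made 7 of 302 paired cells (2.32%).

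Cluster 5, which the authors place in the class Cd4 and whose cells are shallow (median 872 UMIs in library 3), overlapped with cluster 4 in its Trbv segments in library 3 at 0.889 by the Morisita index (near 1 for the same composition) and with cluster 0 at 0.691. The order was the other way for Trav in library 3 (0.596 with cluster 4 and 0.805 with cluster 0) and for Trbv in library 1 (0.717 and 0.930, on 23 detections in cluster 5). In library 3 its Trbv19-positive cells held Cd8a or Cd8b1 in 124 of 172 cases (72.1%, 64.8 to 78.7) and Cd4 in 35 (20.3%), whereas its other Trbv-positive cells held Cd8 transcripts in 70 of 229 (30.6%) and Cd4 in 112 (48.9%). Of the cells of cluster 5 with Trav12-2, 33 of 38 (86.8%) had Cd8 transcripts. In cluster 0 the Trbv19-positive cells were Cd4 cells by the same measure, with Cd4 in 46 of 66 (69.7%) and Cd8 in 14 (21.2%). In cluster 4 itself, 213 of 217 cells with Trbv19 (98.2%) had Cd8 transcripts, as did 27 of the 44 Trbv-positive cells without it (61.4%), of which 19 (43.2%) had Cd4. In library 1, 7 of the 8 cells of cluster 5 with Trav21-dv12 had Cd8 transcripts and 0 had Cd4.

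The breadth of use was summarised as an effective number of segments (the inverse Simpson index, the number of equally used segments that would give the same chance that a pair of draws match). For Trbv, cluster 4 had 3.61, 3.74 and 3.77 in libraries 1, 2 and 3 (3.71 ± 0.0881, mean ± SD, n = 3) and cluster 3 had 11.3, 11.9 and 12.2 (11.8 ± 0.446). In library 3 the value of cluster 4 was lower by the other countings, at 2.00 in cells with exactly 1 segment, 1.97 by UMIs and 1.60 by the leading segment of each cell. The difference, cluster 4 minus cluster 3, was −8.09 ± 0.358 (SD) and negative in 3 of 3 libraries (exact two-sided sign-flip test p = 0.25, the smallest that 3 libraries allow). Cluster 0 had 13.3, 9.24 and 13.97 and regulatory T cells 13.5, 11.6 and 13.2, a difference within the spread between libraries (exact sign-flip p = 0.75). In cells with exactly 1 segment, the difference, regulatory T cells minus cluster 0, was −0.608 ± 0.0931 (SD) and negative in 3 of 3 libraries (exact sign-flip p = 0.25). The whole Cd8 class was lower than Cd4 by 4.97 ± 2.34 in 3 of 3 libraries (exact sign-flip p = 0.25).

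For Trav the values were higher and less even between libraries. Cluster 4 had 2.31, 17.7 and 5.09 and cluster 3 had 18.3, 26.9 and 26.9, lower in cluster 4 in 3 of 3 libraries (exact sign-flip p = 0.25). Without library 2, in which 28 Trav-positive cells gave the 17.7, cluster 4 was at or below 5.09. In library 3 its value was 7.23 by UMIs, 3.75 in cells with exactly 1 segment and 3.97 by the leading segment of each cell. Cd4 cells had 30.1, 19.4 and 36.1 and regulatory T cells 24.5, 15.7 and 39.9, lower in 2 of 3 libraries (exact sign-flip p = 0.75). Pairs of leading segments in library 3 had an effective number of 4.17 in cluster 4, 65.9 in cluster 3, 190.2 in regulatory T cells and 307.1 in cluster 0. In library 1 the pairs of cluster 4 had 2.01.

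**Figure D4:**
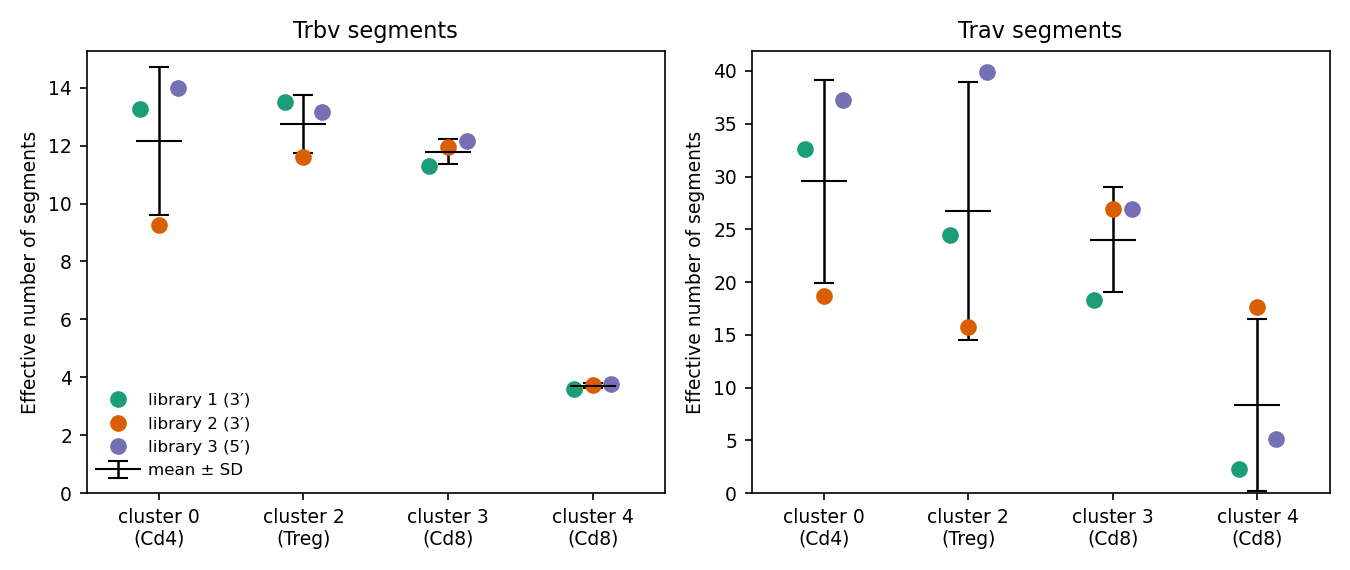
Effective number of Trbv and Trav segments (y axis) in clusters 0, 2, 3 and 4 (x axis), with a point per library and the mean ± SD of 3 libraries. For Trbv the 3 points of cluster 4 lie between 3.61 and 3.77, below every point of clusters 0, 2 and 3, and for Trav the point of library 2 (17.7) stands far above those of libraries 1 and 3.

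The libraries overlapped more in the composition of clusters 0 and 3 than in that of cluster 4. The Morisita index, which is 0 where nothing is shared, is given here as a description without a test. For Trbv it was 0.897, 0.835 and 0.684 between libraries 1 and 2, 1 and 3, and 2 and 3 in cluster 0, and 0.728, 0.652 and 0.725 in cluster 3. In cluster 4 it was 0.193, 0.148 and 0.328 for Trbv and 0.0309, 0.0303 and 0.0864 for Trav. Cluster 9 was also low for Trav, at 0.0169, 0.128 and 0.213, and cluster 6 lay between, at 0.469, 0.462 and 0.687. In cluster 5 the Trav overlap of libraries 1 and 3 was 0.387. Within a library, cluster 0 and the regulatory T cells overlapped at 0.898, 0.892 and 0.976 for Trbv, while clusters 0 and 4 overlapped at 0.537, 0.866 and 0.441.

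V segments were also tested as genes, on UMIs summed by class or cluster and library, with edgeR's quasi-likelihood test, the library as a block and Benjamini-Hochberg adjustment over all tested genes, at an adjusted p under 0.05. The groups were drawn by the authors from the same counts, so these p-values are no evidence that the groups are distinct. In Cd8 against Cd4, 4 of 55 tested V segments were higher and 18 lower, where 14.3% of all tested genes were called (6.61% higher and 7.65% lower). The median log2 fold change of the 55 was −0.78, against −0.02 over all tested genes. Most V segment UMIs came from library 3, and 9 of the 18 lower segments and 0 of the 4 higher ones moved the same way in all 3 libraries.

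Trav5-4 was the clearest of the segments lower in Cd8 cells: it held 1.25, 2.02 and 17.5 CPM in Cd8 and 2.14, 10.0 and 95.2 CPM in Cd4 cells of libraries 1, 2 and 3 (TMM-scaled), lower in 3 of 3 (log2 fold change −2.21 ± 0.31 SE, adjusted p = 2.3e-05, edgeR). Trbv1 held 2.75, 1.21 and 54.3 CPM in Cd8 and 5.55, 2.82 and 170.5 CPM in Cd4 cells, also lower in 3 of 3 (−1.51 ± 0.28, adjusted p = 0.000596, edgeR). Trbv19 was higher in Cd8 cells by 1.21 ± 0.35 (adjusted p = 0.0205, edgeR), but only in libraries 2 and 3: 2.00, 4.86 and 693 CPM against 3.63, 4.39 and 203 CPM. The other 3 higher segments were Trbv12-1 (1.59), Trav15-1-dv6-1 (2.55) and Trav15-2-dv6-2 (3.33).

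In Treg against Cd4, 2 of 55 segments were higher and 2 lower, where 8.23% of all tested genes were called (3.94% higher and 4.3% lower). Trbv16 held 3.81, 1.45 and 293 CPM in regulatory T cells and 1.49, 0.313 and 149 CPM in Cd4 cells, higher in 3 of 3 libraries (1.03 ± 0.22, adjusted p = 0.00281, edgeR). Trbv3 was also higher in 3 of 3 (4.45, 1.45 and 131 CPM against 1.49, 1.25 and 70.3 CPM, 0.94 ± 0.29, adjusted p = 0.0475, edgeR). Trbv14 (−1.98 ± 0.41) and Trav7-3 (−3.79 ± 1.07) were lower, and for each of them 1 library went against the call.

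In cluster 4 against cluster 3, 3 of 60 segments were higher and 21 lower, where 14.7% of all tested genes were called (7.85% higher and 6.86% lower), and 7 of the 21 were lower in all 3 libraries. The median of the 60 was −1.39, against 0.00 over all tested genes. The 3 higher segments were those named above: Trbv19 (1.56, 6.19 and 1276 CPM in cluster 4 and 2.99, 3.64 and 185 CPM in cluster 3, 2.23 ± 0.42, adjusted p = 0.000257, edgeR), Trav12-2 (0, 0 and 124 CPM against 0, 0 and 17.2 CPM, 2.53 ± 0.54) and Trav21-dv12 (152, 0 and 14.6 CPM against 3.74, 0.909 and 28.5 CPM, 2.93 ± 0.83). Trbv19 was higher in libraries 2 and 3 only and Trav12-2 was read in library 3 alone, while Trav21-dv12 was higher in library 1 and lower in library 3. In library 2, which held 15 UMIs of Trav21-dv12 in all, its values were too near 0 to give a direction. Trbv13-3 was the lower segment with the smallest adjusted p (1.56, 0 and 15.1 CPM against 1.497, 0.909 and 286 CPM, −3.82 ± 0.36, adjusted p = 1.74e-09, edgeR). It was not lower in library 1, the whole of library 2 held 8 of its UMIs, and without library 3 it was not called. Trbv13-1, which led library 1, was not called (25.4, 0.773 and 62.9 CPM against 5.24, 1.82 and 180 CPM, 0.02 ± 0.40).

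Cluster 6, the remaining Cd4 cluster, used Trbv13-2 in 8 of 23, 2 of 14 and 30 of 165 Trbv-positive cells (34.8%, 14.3% and 18.2%). Its leading segment in library 3 was Trbv5 (37 cells, 22.4%), followed by Trbv13-1 (33 cells, 20%). Cluster 6 had Trbv5 at 17.6% there by the leading segment of each cell and at 9.66% of its Trbv UMIs. Its alpha segments were spread, with Trav9-1 in 21 of 158 cells of library 3 (13.3%), or 1.52% of the cells with exactly 1 Trav segment and 8.76% by the leading segment of each cell. In cluster 6 against cluster 0, 0 of 60 segments were higher and 3 lower (Trbv17 −3.12, Trbv16 −1.20 and Trbv13-3 −1.19), where 6.91% of all tested genes were called (3.03% higher and 3.89% lower). Most of these calls were lost without library 3. Then 9 V segments could still be tested, and the calls were 1, 0, 1 and 0 in these 4 comparisons in the order given, against 22, 4, 24 and 3 with it. The segment called without it was Trav21-dv12 in both cases, which with all 3 libraries was called in cluster 4 against cluster 3 only. DESeq2 in place of edgeR called 2, 0, 4 and 0. With the segments of each chain scaled to the total UMIs of that chain, which removes the difference in V reads per cell, 0, 0, 2 and 0 were called. That fit took its spread and its adjustment from all genes under this scaling, and why it called fewer was not tested. Its unadjusted p was under 0.05 for 6, 0, 22 and 4 segments, against 29, 13, 34 and 13 in the main fit (both edgeR).

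In libraries 1 and 3 most Trav-positive cells of cluster 9 held an alpha segment that the delta chain can share. Segments with dv in their name were found in 45 of 50 Trav-positive cells of library 1 (90.0%), 9 of 22 of library 2 (40.9%) and 43 of 50 of library 3 (86.0%), against 36.8%, 11.2% and 20.97% in the alpha-beta T classes. Among the clusters of those classes, cluster 4 of library 1, led by Trav21-dv12, was also high at 75.1%. In library 1 the segment of cluster 9 was Trav4-4-dv10, in 38 of 50 cells (76.0%, 61.8 to 86.9), and 25 of those 38 also had a UMI of Trav4-3, the segment with the same last 60 bases. Of the 38 cells, 34 had Trac, the alpha constant region, and 0 had Trdc (a count of 0 allows up to 7.89%), whereas 79 of the 113 other cells of cluster 9 had Trdc.

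In library 3 it was Trav15-1-dv6-1, in 37 of 50 cells (74.0%, 59.7 to 85.4), of which 25 had Trdc and 12 had Trac. These counts include 9 cells with both, and another 9 had neither. In library 2, Trav16d-dv11 led with 7 of 22 cells (31.8%), of which 6 had Trac and 0 had Trdc. Trav4-4-dv10 was listed at 0 in the Trav-positive cells of cluster 9 in libraries 2 and 3, which allows up to 13.6% and 6%. Beta segments were read in few cells of cluster 9 in the 3′ libraries: Trbv19 led library 1 with 4 of 14 cells, Trbv12-1 library 2 with 7 of 18, and Trbv3 library 3 with 9 of 46. The effective number of Trav segments in cluster 9 was 3.04, 6.13 and 4.02. In the alpha-beta T classes, cells with a dv segment had Trdc in 1.504%, 3.45% and 2.81% of cases, and the 40 such cells of library 3 with Trav15-1-dv6-1 had it in 9.

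**Figure D5:**
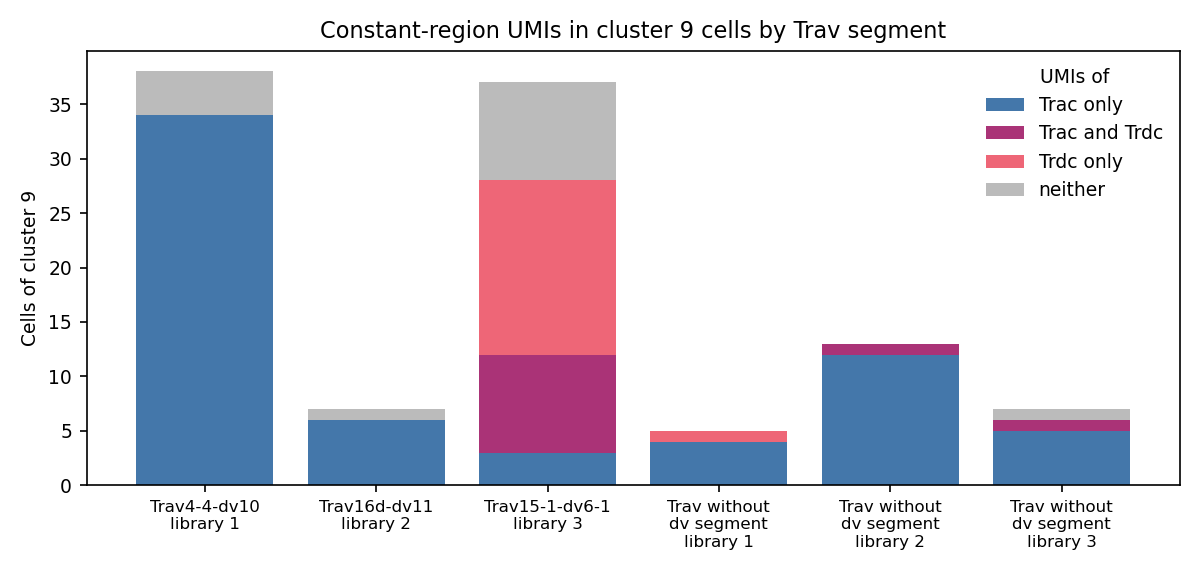
Cells of cluster 9 (y axis, number of cells) with the leading dv segment of each library, or with Trav but no dv segment (x axis), stacked by the constant regions read in the cell. The 38 cells of library 1 with Trav4-4-dv10 hold no Trdc, while 25 of the 37 cells of library 3 with Trav15-1-dv6-1 do.

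In cluster 9 against clusters 0 and 3, 4 of 60 segments were higher and 19 lower, where 14.3% of all tested genes were called (7.47% higher and 6.88% lower). The median of the 60 was −2.41. Trav4-4-dv10 was higher (297, 0 and 0 CPM against 1.69, 0.213 and 12.3 CPM, 5.09 ± 0.87, adjusted p = 6.87e-05, edgeR) through library 1 alone, and without that library it was −4.40 (adjusted p = 0.156, edgeR). Trbv3 (1.60), Trav15-2-dv6-2 (2.27) and Trbv12-1 (1.44) were also higher, none of them in all 3 libraries, while 16 of the 19 lower segments were lower in 3 of 3. In cluster 11, the class Mixed, led by the cytokine gene Il17a and the delta segment Trdv4, 1 of 60 segments was higher against clusters 0 and 3 and 13 lower, where 10.2% of all tested genes were called (6.34% higher and 3.9% lower). Trbv13-2 was lower there (0, 0 and 17.8 CPM against 3.89, 3.04 and 197 CPM, −3.46 ± 0.45) and Trav7-5 higher (2.02 ± 0.63, adjusted p = 0.0431, edgeR). The call on Trav7-5 was lost with DESeq2, without any 1 of the 3 libraries and without the library term. It was also lost with scaling to the Trav UMIs. Fewer cells with a receptor and fewer transcripts per cell cannot be told apart in these sums.

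The invariant genes of the receptor complex, the coreceptors and the first signalling steps were read beside the V segments. Of the 16 tested genes of that list of 19, 3 were higher and 1 lower in Cd8 against Cd4: Cd8a, Cd8b1 and Trdc were higher and Cd4 lower. In cluster 4 against cluster 3, 1 was higher, the zeta chain gene Cd247 (185, 241 and 532 CPM against 124, 127 and 268 CPM, 0.83 ± 0.27, adjusted p = 0.0334, edgeR). In Treg against Cd4, Cd8a was lower (−2.09 ± 0.54, adjusted p = 0.0143, edgeR), and in cluster 6 against cluster 0 none was called. In cluster 9 against clusters 0 and 3, Trdc and Cd8a were higher and Cd4, Cd8b1, Cd247 and the adaptor gene Lat lower. In cluster 11, Trdc was higher and Cd8a, Cd8b1, Lck and Ptprc lower. Of a list of 4 genes of receptor rearrangement, 2 were in the table and 0 passed the filter on low counts.

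Some members were barely read, or read in 1 library only. Trbv5 was listed at 0 in the 464 and 203 Trbv-positive T cells of libraries 1 and 2, which allows up to 0.647% and 1.48%, and was used by 13.6% of cluster 0, 13.9% of regulatory T cells and 22.4% of cluster 6 in library 3. The lowest Trbv members over all cells were Trbv22 (3 cells), Trbv23 (7), Trbv30 (12) and Trbv26 (18). Trav1, the alpha segment of mucosal-associated invariant T cells, was found in 3, 3 and 25 cells of libraries 1, 2 and 3. The reference annotates 7 members as pseudogenes, among them Trbv24 (67 cells) and Trav8-2 (26 cells). Copies named d made 13.9%, 18.8% and 16.5% of the Trav counts of the alpha-beta T classes, and copies named n made 23.4%, 24.6% and 13.6%.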

How the data were processed

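UMI counts of 17168 genes in 11640 cells of CD45+ sciatic nerve leukocytes (3 libraries, 1 genotype) were used as deposited by the authors, as whole-number counts with no scaling, with the authors' classes and clusters. The submitters' processing notes name Seurat 4.0, Cell Ranger 5.0.1 and the build mm10 without saying what each did. The deposited cell table also holds the authors' mitochondrial percent per cell, which entered no result. Cells were paired with samples by the cell numbers in the labels. All cells were kept.

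Use, exact binomial intervals (95%), the inverse Simpson index (at least 20 counts) and Morisita overlap were computed in Python 3.11.15 (scipy 1.17.1). UMIs summed by group and library (8 classes or 12 clusters with at least 20 cells in each library) were tested with edgeR 4.0.16 (R 4.3.3): TMM, filterByExpr, quasi-likelihood F-test, library as a block. Deviations of the same library correlated between groups at 0.559 to 0.915, so the block was kept. DESeq2 1.42.0 was an alternative. The statistics were tested on simulated data. Reference sequences are from GENCODE vM21, older names from RefSeq.

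The members and gene lists were chosen with earlier results of these data known. Segments named are the 5 of highest mean use per class, those called (up to 10 per comparison), the leading segment of a group with at least 50 chain-positive cells, leading pairs, and segments of known background. Trav11 and Trav11d were not analysed here. Counting only the segment with the most UMIs was chosen after seeing the data. A result for 1 gene of the receptor signalling list is not reported here.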

Additional observations from a re-analysis of the deposited data

How the results depend on the processing

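Counts of called V segments depended on the fit, and the cause was not tested. For Cd8 against Cd4 (22), Treg against Cd4 (4), cluster 4 against 3 (24), cluster 6 against 0 (3), cluster 9 against clusters 0 and 3 (23) and cluster 11 against clusters 0 and 3 (14), DESeq2 called 2, 0, 4, 0, 11 and 5. Scaling to the V pool of each chain left 0, 0, 2, 0, 9 and 3, and for that fit calls over all genes were not counted. With no replicate block (the library term left out) the counts were 0, 0, 0, 0, 2 and 0. Over all tested genes (10895 in the class comparisons and 10545 in the cluster comparisons), the main fit called 1554, 897, 1551, 729, 1513 and 1080. DESeq2 called 1467, 867, 1609, 761, 1605 and 1094 genes in all, and the fit without the block 150, 58, 139, 102, 536 and 489. Without library 3, 1109, 602, 1064, 555, 1180 and 743 genes were called in all. The totals were 662, 277, 630, 399, 938 and 722 without library 1, and 1002, 480, 881, 378, 806 and 630 without library 2. Leaving out 1 library gave 1 to 26, 0 to 5, 1 to 27, 0 to 3, 2 to 21 and 0 to 15, the lowest always without library 3. Treg against Cd4 without cluster 5 called 7 of 55 V segments and 989 genes in all. Cluster 6 against cluster 0 without the filter called 5 of 93 V segments and 727 genes in all. DESeq2 size factors in place of TMM kept all 6 counts within 1.5 times. Trav4-4-dv10 in cluster 9 ranged from −4.40 (without library 1) to 5.30 (without library 2). Of 47 log2 fold changes of named segments, 18 kept their call with DESeq2, 9 with scaling to the V pool and 1 without the block, and none of these changed sign.

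The mean effective number of Trbv segments moved by more than 1 SD in these cases: Cd8 to 5.52 and cluster 3 to 11.1 by the leading segment of each cell, regulatory T cells to 11.6 (cells with 1 segment) and 11.1 (UMIs), and cluster 4 to 3.07, 3.23 and 3.00 (1 segment, UMIs, leading segment). The cause of these shifts was not tested. With at least 2 UMIs, no group had enough cells for Trbv in all 3 libraries, and for Trav only the class Cd4 and its cluster 0 did. Shares of T cells with a Trbv UMI in libraries 1, 2 and 3 were 4.97%, 3.55% and 77.6% thinned to 1000 UMIs, 9.75%, 6.78% and 91.5% thinned to 2000, and 1.45%, 1.82% and 80.3% with at least 2 UMIs. For Trav they were 9.75%, 5.52% and 61.2%, then 16.4%, 9.52% and 79.4%, then 7.44%, 4.64% and 67.0%. Of the uses of leading segments recomputed under 3 other countings, 42 left the 95% interval of the value given and 66 stayed within it.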
